A study of Oryza sativa with 6 samples.

Results

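The genes described here form a stretch of rice chromosome 7, around the 4-coumarate:CoA ligase-like gene 4CLL7 and the IAA-amino acid hydrolase-like gene ILL8. All probe sets were taken that the array's annotation assigns to exactly 1 gene with an Entrez gene id from that of LOC4342801 to that of LOC4343048, leaving out spdSyn1. This gave 168 probe sets of 137 genes, out of 22436 one-gene probe sets of 17905 genes on the array. The range was proposed because it holds many genes that differ between the lines in these same arrays, so the differences given for its genes are a description and their number supports nothing.

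The series measured mRNA on Affymetrix rice arrays in leaves of 30-day seedlings. There were 3 arrays of KMD, a transgenic line in the cultivar Xiushui 11, and 3 arrays of wild-type Xiushui 11 (XS11), its parent. Beyond the labels, KMD is known as an insect-resistant rice with the cry1Ab toxin gene from the bacterium Bacillus thuringiensis. KMD stands here for a single transformed line. The labels call the arrays biological replicates without the number of plants behind each, so p-values measure the spread between these arrays only. The submitters looked for differing genes to clarify unintended effects of the transformation.

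Neighbouring genes in a plant chromosome are mostly transcribed independently of each other, each from its own promoter, although nearby genes can share chromatin or arise as tandem copies. The array reads a transcript through short oligonucleotide probes, grouped into probe sets, and a signal depends on how well the transcript matches them as well as on its level. Probe and transcript sequences were not analysed here, so the match was not tested in either line.

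In the RefSeq table of assembly ASM3414082v1, 167 genes have an id in the range, and all 167 lie on chromosome 7. Sorted by id they were also in order of position, with 0 neighbours out of order, so the id order is used as chromosome order. The assembly lists 360 genes over that interval, of which 193 carry newer ids from outside the range and are not described. Positions are left out, because the build behind the array's annotation is not named. Of the 137 genes, 134 are annotated as protein-coding, 2 (LOC4342991 and LOC4343040) as lncRNA and 1 (LOC4342989) as a pseudogene. Only 12 of the 137 have a symbol or synonym other than a clone name, and the others are given by their LOC names with no role.

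Of the 168 probe sets, 123 were bright enough to be tested, and they stand for 107 genes. The other 45 probe sets had line means between 3.24 and 38.2 intensity units, and 30 genes had only such dim probe sets. For orientation, 10 in 100 of all values on the arrays lie below 11.17. Fold changes are differences of mean log2(signal + 11.17), KMD minus XS11, with standard errors (SE) from limma, and they understate the change of dim genes.

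The arrays of a line were close to each other, and the lines differed as a whole. Log2 signals correlated at 0.995 to 0.997 within a line and at 0.974 to 0.976 between lines. The poly-A spike-ins, transcripts added before labelling, are read by 36 probe sets, which were on average 0.62 higher in KMD (log2), and for 35 of them every KMD array lay above every XS11 array. The 3' over 5' signal ratio, which depends on RNA integrity, was 3.48 ± 0.05 in KMD and 2.75 ± 0.21 in XS11 for one set of GAPDH controls and 0.916 ± 0.156 in KMD and 1.199 ± 0.167 in XS11 for the other (SD, n = 3 each). For one set of actin controls it was 5.79 ± 0.14 in KMD and 4.62 ± 0.30 in XS11, and for the other 6.88 ± 0.72 and 6.78 ± 0.91. As a check of the tissue, 4 of 10 leaf genes on a marker list were found, and their summed intensity was 43007 to 43647 in KMD and 46003 to 46494 in XS11. Of 6 root genes 4 were found, with sums of 277 to 320 in KMD and 419 to 467 in XS11, LSI2 being near the dim end in both lines. Most of these sums came from LSI1, at 180 to 214 in KMD and 279 to 298 in XS11. LSI1, IRT1 and AMT1-2 each read lower in every KMD array than in any XS11 array. The 3 seed and anther genes found of 6 listed summed to 70.5 to 75.5 in KMD and 72.6 to 84.1 in XS11. Of the listed names, OSC6 and C6 led to the same probe set, and GLUA1 read below 11.17 in every array. The part of these differences in the results below was not tested.

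4CLL7 (LOC4342925) is named as a member of the 4-coumarate:CoA ligase-like group, relatives of the enzymes that activate 4-coumarate for lignin and flavonoid synthesis. Its 1 probe set read 29.1, 33.2 and 35.9 in KMD, against 734, 746 and 750 in XS11. The KMD arrays were all far below the XS11 arrays, and the 3 arrays of each line lay close together. The mean was 32.7 ± 3.42 in KMD and 743 ± 8.73 in XS11 (SD, n = 3 each), a log2 fold change of -4.11 (SE 0.06). This is 17.2-fold lower in KMD on the scale used. The KMD values lie in the range of the probe sets that were too dim to be tested. The 4CLL7 transcript is therefore not shown to be above background in KMD. The size of its fold depends on the pseudocount, the value added to the signal before the log2. The log2 difference was -4.47 with a pseudocount of 1 and -3.9 with 18.5.

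ILL8 (LOC4342839) is named after IAA-amino acid hydrolases, which in Arabidopsis release the auxin indole-3-acetic acid from its conjugates. It read 84.7, 86.0 and 91.5 in KMD, against 29.1, 28.2 and 28.5 in XS11. Every KMD array was above every XS11 array, by a log2 fold change of 1.31 (SE 0.08), or 2.48-fold on the scale used. The XS11 values lie in the range of the probe sets that were too dim to be tested. The ILL8 transcript is therefore not shown to be above background in XS11, and its fold depends on the pseudocount. The log2 difference was 1.58 with a pseudocount of 1 and 1.17 with 18.5. ILL7 (LOC4342838), a relative of ILL8, is the very next gene, with 0 annotated genes between them. ILL7 read 250, 244 and 243 in KMD, against 256, 259 and 251 in XS11, a log2 fold change of -0.05 (SE 0.05) that did not pass the test, although the arrays of the lines just failed to overlap. The neighbours thus stood at 1.31 and -0.05 on the log2 scale.

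Over the whole stretch, 38 of the 123 tested probe sets passed limma's test (Benjamini-Hochberg, over all 34404 probe sets tested) as higher in KMD, and 48 as lower. These are 30.9% and 39.0% of the tested probe sets of the stretch, where 18.1% and 21.6% of all tested probe sets passed as higher and as lower. The arrays of the lines did not overlap in 95 of the 123, or 77.2%, against 48.8% of all tested probe sets. All tested probe sets include many without a gene in the annotation, unlike those of the stretch, so these comparisons are between unlike sets. Of all named genes, read by their brightest tested probe set, 23.2% passed as higher and 33.0% as lower. Read by the brightest tested probe set of each gene, 6 of 107 genes passed and were at least 2-fold higher in KMD (5.61%), and 12 were at least 2-fold lower (11.2%). Among all 14790 genes read that way these shares were 0.609% and 1.8%. Because the range was chosen from this contrast, nothing is read from these shares, and a gene that is dim in 1 line can be among the tested ones only through its level in the other.

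**Figure D1:**
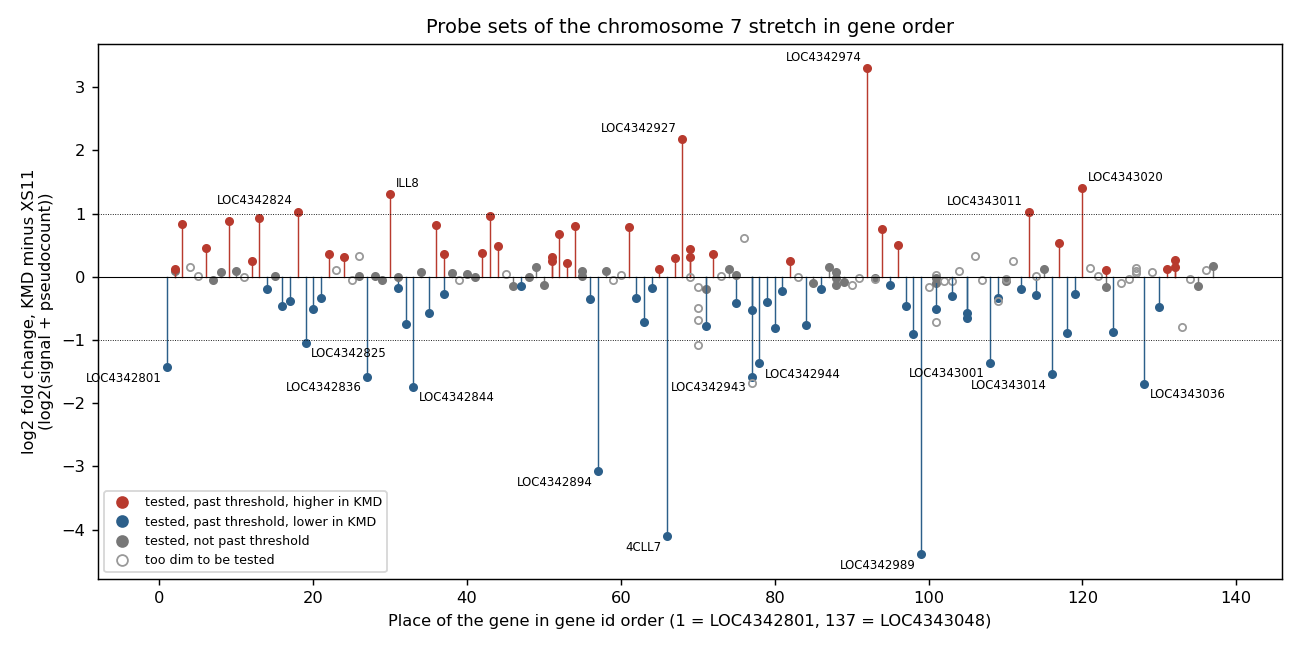
Log2 fold change (KMD minus XS11) of all 168 probe sets, against the place of their gene in gene id order. Red and blue points passed the test as higher and lower in KMD, grey points did not pass, open circles were too dim to be tested, and dotted lines mark 2-fold. The 18 genes past 2-fold are labelled and lie scattered among genes with smaller differences in both directions.

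The size of the differences varied from gene to gene. Of the 107 tested genes, 41 differed by under 0.25 on the log2 scale, 25 by 0.25 to 0.5, 23 by 0.5 to 1, 13 by 1 to 2 and 5 by 2 or more. The median absolute log2 fold change was 0.347 in the stretch and 0.19 over all 14790 genes. The signed medians were -0.052 and -0.034. The stretch held differences in both directions, so its signed median stayed near 0. The median within-line SD of log2 signal was 0.061 in KMD and 0.059 in XS11 for the genes of the stretch, and 0.057 in both lines for all genes.

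Besides 4CLL7, the genes lower by 2 or more on the log2 scale were LOC4342989 and LOC4342894. In KMD they were still closer to the dim end of the scale than 4CLL7. LOC4342989, annotated as a pseudogene, read 11.8, 7.18 and 8.07 in KMD, against 430, 413 and 392 in XS11. On the scale used the log2 difference was -4.39, and it was -5.39 with a pseudocount of 1 and -3.97 with 18.5. LOC4342894 read 8.16, 8.81 and 8.53 in KMD, against 145, 165 and 155 in XS11, a log2 difference of -3.08, and of -4.04 and -2.68 with those pseudocounts. The KMD values of LOC4342894 were all below 11.17, and those of LOC4342989 were below it in 2 of 3 arrays, so neither transcript is shown to be above background in KMD, and the sizes of these differences are set by the pseudocount. No detection calls were analysed here.

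The largest differences in the other direction were in LOC4342974 and LOC4342927. LOC4342974 read 789, 810 and 810 in KMD, against 72.6, 76.1 and 66.2 in XS11, a log2 fold change of 3.30 (SE 0.05), or 9.84-fold. LOC4342927 read 164, 163 and 143 in KMD, against 28.0, 24.1 and 24.98 in XS11, a log2 fold change of 2.18 (SE 0.08). The XS11 values of LOC4342927 lie in the range of the probe sets that were too dim to be tested, so its transcript is not shown to be above background in XS11 and its fold depends on the pseudocount. In these 2 genes, as in the 3 that were lower by 2 or more on the log2 scale, the gap between the lines was many times the spread within either.

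LOC4342927 and 4CLL7 lie close to each other and went opposite ways. Between them stands OsC3H49 (LOC4342926), named as a CCCH zinc finger gene, with 1 annotated gene between 4CLL7 and it and 2 between it and LOC4342927. OsC3H49 read 81.2, 100.1 and 103 in KMD, against 81.1, 72.0 and 71.4 in XS11. The lowest KMD array barely cleared the highest XS11 array, and the log2 fold change was 0.30 (SE 0.09). It passed the test with all 6 arrays but not without KMD replicate 2 (0.26), KMD replicate 3 (0.24) or XS11 replicate 2 (0.27). Along the chromosome the 3 genes thus stood at log2 fold changes of -4.11, 0.30 and 2.18.

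A further 9 genes were lower in KMD by 1 to 2 on the log2 scale. LOC4342844 read 126, 118 and 129 in KMD, against 462, 426 and 437 in XS11 (log2 fold change -1.74, SE 0.05). LOC4343036 read 175, 187 and 171 in KMD, against 571, 608 and 618 in XS11 (-1.69, SE 0.05). These were the largest differences among the 9. LOC4343014 read 511, 505 and 509 in KMD, against 1543, 1470 and 1505 in XS11 (-1.55, SE 0.04). LOC4342836 was dim in KMD, at 18.5, 20.1 and 18.3, against 71.2, 83.9 and 81.7 in XS11 (-1.58, SE 0.09). LOC4342825 was also dim in KMD and had the smallest of these differences. It read 19.5, 21.5 and 20.2 in KMD, against 50.9, 55.1 and 56.4 in XS11 (-1.05, SE 0.08). Its log2 difference was -1.36 with a pseudocount of 1 and -0.9 with 18.5, the latter under 2-fold. In each of these 5 genes every KMD array was below every XS11 array.

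The other 4 of the 9 were LOC4342801, LOC4342943, LOC4342944 and LOC4343001. LOC4342801, the first gene of the range, read 34.0, 35.0 and 34.0 in KMD, against 108, 112 and 116 in XS11 (log2 fold change -1.44, SE 0.07). LOC4343001 read 35.4, 35.1 and 38.8 in KMD, against 110, 115 and 108 in XS11 (-1.36, SE 0.07). LOC4342943 and LOC4342944 are neighbours among the tested genes, with 1 annotated gene between them, and both were lower. LOC4342943 read 291, 309 and 289 in KMD, against 910, 882 and 939 in XS11 (-1.58, SE 0.04). LOC4342944 read 58.8, 58.7 and 68.0 in KMD, against 173, 183 and 175 in XS11 (-1.37, SE 0.07). They were the only pair of neighbouring tested genes that passed 2-fold in the same direction.

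The remaining 3 genes that were at least 2-fold higher were LOC4343020, LOC4342824 and LOC4343011. LOC4343020 read 213, 222 and 211 in KMD, against 79.5, 77.3 and 68.2 in XS11 (log2 fold change 1.40, SE 0.07). LOC4342824 read 1720, 1856 and 1735 in KMD, against 858, 842 and 884 in XS11 (1.03, SE 0.04). LOC4343011 read 184, 202 and 200 in KMD, against 93.6, 88.2 and 88.9 in XS11 (1.02, SE 0.06). LOC4342824 and LOC4343011 lie just over the 2-fold line. LOC4342824 is also directly followed by LOC4342825, with 0 annotated genes between them, and these neighbours differed by 1.03 and -1.05.

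**Figure D2:**
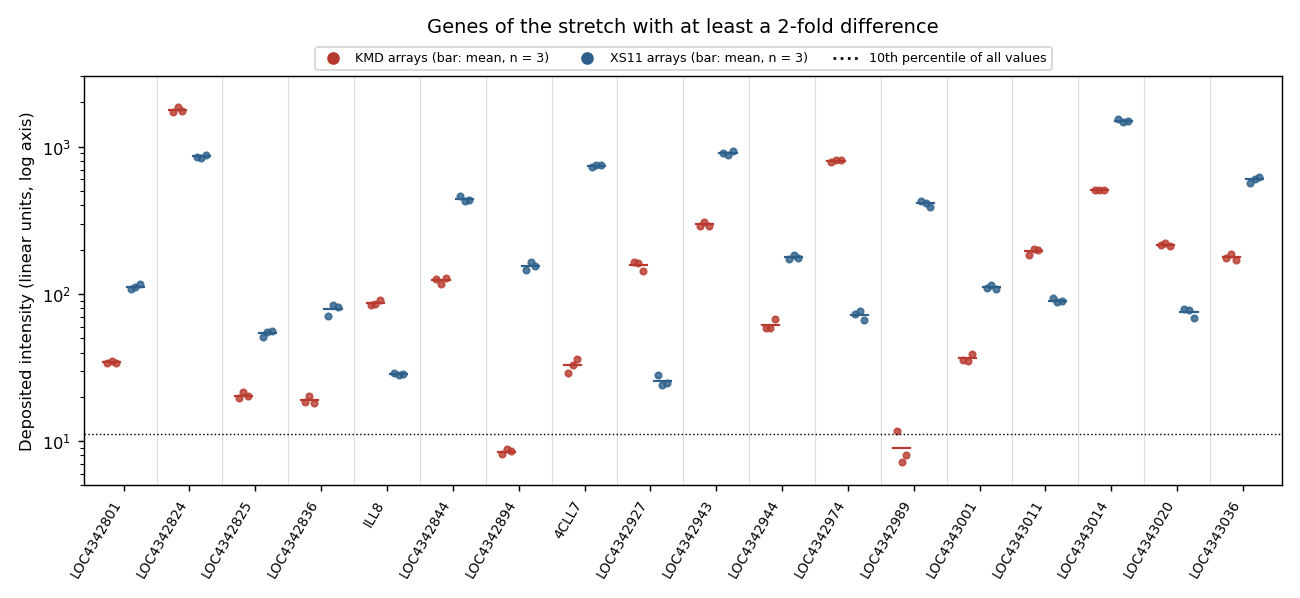
Deposited intensity (log axis) of the 18 genes past 2-fold in every array, in chromosome order, with KMD left of XS11 for each gene. Points are arrays, bars are means of 3 arrays, and the dotted line is the 10th percentile of all values (11.17). The arrays of the lines do not overlap in any of the 18, and LOC4342894 and LOC4342989 reach the dim end in KMD.

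The 18 brightest probe sets behind these genes are all of the plain type, which is designed to match 1 transcript, while 34 of the 168 probe sets of the stretch have a suffix that marks probes shared between transcripts. Of the 18 genes, 17 are protein-coding in the annotation. The 6 higher genes and 11 of the 12 lower genes have 1 probe set each on the array, so each rests on a single reading. LOC4342943 is the exception. Its second tested probe set gave -0.53 (SE 0.09), and the one too dim to be tested had a mean of 3.24 in KMD and 35.3 in XS11, a log2 difference of -1.69.

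Genes with several tested probe sets differed in how far these agreed. There were 14 such genes. In LOC4342852 the probe sets passed the test in opposite directions, at 0.36 for the plain one and -0.28 for the one of the x type, whose probes can also match other genes. In LOC4342934 they gave -0.79 and -0.19, and in LOC4342939 -0.42 and 0.03. Both of LOC4342997 were lower, at -0.65 and -0.57, and both tested ones of LOC4342930 were higher, at 0.44 and 0.32. The lncRNA LOC4342991 had 3 tested probe sets at -0.51, -0.10 and -0.02, of which the first passed. The other lncRNA, LOC4343040, had 2 at 0.15 and 0.27, and both passed. Of the 14 genes, LOC4342852 was the only one with calls in opposite directions.

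Along the chromosome the 18 genes were spread over the whole stretch. Split in order into 4 blocks of 26 or 27 tested genes, the first block held 5 of them (2 higher and 3 lower in KMD), the second 2 (0 and 2), the third 5 (2 and 3) and the fourth 6 (2 and 4). The longest run of tested genes without one was 21 genes, from LOC4342847 to LOC4342892. The next longest was 13 genes, from LOC4342802 to LOC4342822. Going from each of the 18 to the next, the direction stayed the same 5 times and turned 12 times. Only 2 pairs were next to each other among the tested genes, LOC4342824 with LOC4342825 and LOC4342943 with LOC4342944.

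The run of 21 genes holds 4 of the named ones. CESA6 (LOC4342850), a catalytic subunit of cellulose synthase, read 106, 111 and 109.6 in KMD, against 172, 166 and 163 in XS11. All KMD arrays were lower, by a log2 fold change of -0.57 (SE 0.06). NRAMP5 (LOC4342859), the manganese and cadmium uptake transporter of rice, read 74.4, 64.0 and 78.2 in KMD, against 66.5, 70.1 and 71.6 in XS11. The lines overlapped, and its log2 fold change of 0.05 (SE 0.08) did not pass.

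Nramp1 (LOC4342862), a metal transporter of the same family, lies further on, with 5 annotated genes between NRAMP5 and it. Nramp1 read 192, 206 and 179.7 in KMD, against 87.5, 88.6 and 103 in XS11. Every KMD array was above every XS11 array, and its log2 fold change of 0.97 (SE 0.07) fell just short of 2-fold on the scale used. With a pseudocount of 1 it was 1.04. As with ILL7 and ILL8, 1 of 2 relatives that lie near each other was clearly higher and the other was not past the test. The difference within each pair was not tested, since the genes were chosen with this contrast known. ETR4 (LOC4342865), named as an ethylene receptor, was dim at 29.7, 22.4 and 30.0 in KMD, against 31.2, 30.7 and 32.4 in XS11. The lines just failed to overlap, and its log2 fold change of -0.15 (SE 0.10) did not pass.

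The named genes left are CRO1, CPK18, PARP1 and AO-4. CRO1 (LOC4342826, also CRT1), listed under names used for calreticulin, a calcium-binding chaperone of the endoplasmic reticulum, is one of them. It read 894, 861 and 848 in KMD, against 1242, 1238 and 1260 in XS11, with all KMD arrays lower (log2 fold change -0.52, SE 0.04). CPK18 (LOC4343002, also CDPK5), a calcium-dependent protein kinase, read 83.1, 89.1 and 91.4 in KMD, against 127, 106 and 108 in XS11. It was lower by a log2 fold change of -0.33 (SE 0.08), read by a probe set of the s type that can take signal from related transcripts.

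PARP1 (LOC4343013), a poly(ADP-ribose) polymerase that acts in the response to DNA damage, read 40.6, 43.0 and 49.5 in KMD, against 43.4, 42.3 and 34.4 in XS11. The lines overlapped and the log2 fold change of 0.12 (SE 0.10) did not pass. AO-4 (LOC4342932) has 4 probe sets on the array, all too dim to be tested. The one with the largest difference had a mean of 4.62 in KMD and 22.0 in XS11, a log2 difference of -1.07. It and the dimmest probe set of LOC4342943 were the only 2 of the 45 untested probe sets past 2-fold. Of the 12 genes with a symbol or synonym, 2 (4CLL7 and ILL8) were thus past 2-fold by a tested probe set on the scale used.

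**Figure D3:**
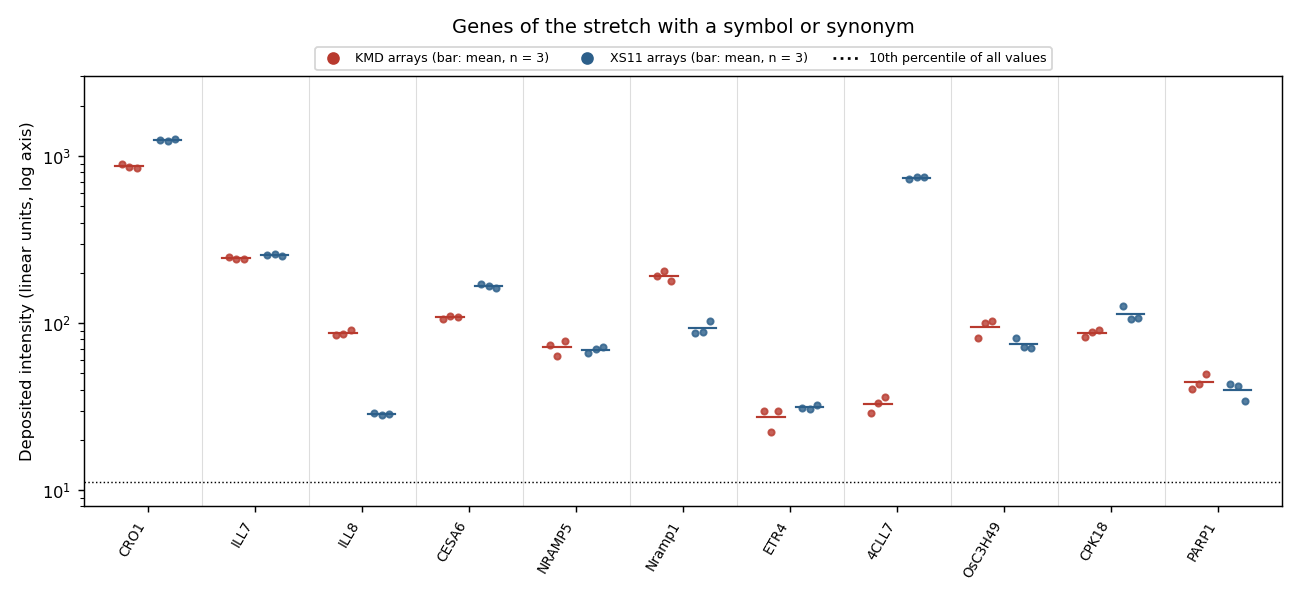
Deposited intensity (log axis) in every array of the 11 tested genes that have a symbol or synonym, in chromosome order, KMD left of XS11. Points are arrays, bars are means of 3 arrays, and the dotted line is the 10th percentile of all values (11.17). 4CLL7 is the only one far lower in KMD, ILL8 and Nramp1 are higher, and NRAMP5 and PARP1 overlap.

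Most genes of the stretch were under 2-fold on the scale used. Of these 89 tested genes, 28 passed the test as higher (31.5%), 33 as lower (37.1%) and 28 did not pass. Among all 14790 named genes, 2-fold ones included, 23.2% passed as higher and 33.0% as lower, and nothing is read from the comparison. Their log2 fold changes ran from -0.91 (LOC4342988) to 0.97 (Nramp1). Just under the 2-fold line on the higher side were LOC4342816, at 133 ± 2.13 in KMD and 64.9 ± 1.14 in XS11 (0.93), and LOC4342810, at 191 ± 4.64 and 99.3 ± 4.97 (0.88). On the lower side were LOC4342988, at 70.1 ± 5.41 in KMD and 141 ± 9.73 in XS11, and LOC4343016, at 26.0 ± 0.95 and 57.6 ± 1.63 (-0.89). LOC4343010, a gene of high signal, read 3888 ± 69.7 in KMD and 4432 ± 103 in XS11 (SD, n = 3 each), a log2 fold change of -0.19. LOC4342871, another, read 2053 ± 62.3 in KMD and 2048 ± 20.4 in XS11, a log2 fold change of 0.00 (SE 0.03) that did not pass.

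The ends of the range were set by gene id and are not shown to mark an end of the differences on either side. Below it, the first array gene outside is LOC4342799, whose tested probe sets gave -0.03 and -0.32, against -1.44 for LOC4342801 just inside. Of the 25 array genes next below, 23 were tested, 6 passed as higher and 7 as lower in KMD, and 0 were past 2-fold in either direction. These shares, 26.1% and 30.4%, are near the 23.2% and 33.0% of all named genes. Above it, the last gene inside is LOC4343048, at 0.17 (SE 0.10), not past the test. The first gene outside is LOC4343049, which is CESA3, another cellulose synthase subunit, with probe sets at -1.37 (SE 0.04) and -1.13 (SE 0.10).

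Of the 25 array genes next above, 19 were tested, 4 passed as higher (21.1%) and 9 as lower (47.4%). Among all named genes 23.2% passed as higher and 33.0% as lower, and 0.609% and 1.8% were at least 2-fold higher and lower. In this flank 1 gene was at least 2-fold higher and 3 were at least 2-fold lower. The higher one was LOC4343067, with probe sets at 1.18 and 1.14. The lower ones were CESA3, LOC4343108 (-1.17) and OsPIP2;5 (-1.03), named as a plasma membrane aquaporin. The median absolute log2 fold change was 0.262 below the range and 0.293 above it. It was 0.347 within the range and 0.19 over all named genes. On the rest of chromosome 7, with these flanks included, 29 of 1014 tested genes (2.86%) were past 2-fold, 8 higher and 21 lower in KMD. The share among all named genes was 2.41%.

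4CLL7 and ILL8 have relatives elsewhere in the genome. By symbol or synonym the tables name 5 4CL genes, 4 4CLL genes and 7 ILL genes, of which 14 were tested. Of these 14, 2 passed as higher and 10 as lower in KMD. Among all 14790 named genes, 23.2% passed as higher and 33.0% as lower. The medians of the log2 fold change were -0.68 for the 4CL genes, -0.16 for the 4CLL genes and -0.16 for the ILL genes, against -0.034 for all genes. Such lists were drawn up with earlier results known, and nothing is claimed as particular to them.

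The 5 4CL genes, which encode the enzymes that activate hydroxycinnamic acids, all passed as lower by their brightest probe set. They ranged from -1.22 for 4CL-3 (adjusted p = 3.49e-10 in limma) to -0.53 for 4CL2, and the other probe set of 4CL4 gave 0.15 and did not pass. 4CL-3 averaged 252 ± 13.4 in KMD and 603 ± 16.9 in XS11 (SD, n = 3 each). Of the other 4CLL genes tested, 4CLL1 stood at -0.16 (adjusted p = 0.0109 in limma) and 4CLL4 at -0.04, which did not pass. 4CLL4 averaged 385 ± 14.8 in KMD and 397 ± 20.6 in XS11. None of these relatives came near the log2 fold change of -4.11 of 4CLL7.

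Of the ILL genes outside the stretch, ILL2 was higher at 0.38 (adjusted p = 0.000513 in limma), while ILL1 (-0.68), ILL6 (-0.41) and ILL5 (-0.27 and -0.39 by 2 probe sets) were lower. ILL2 averaged 131 ± 1.62 in KMD and 98.2 ± 8.11 in XS11. ILL1 averaged 166 ± 11.5 in KMD and 273 ± 15.2 in XS11. ILL3 was too dim to be tested. The values of the ILL genes therefore ran from -0.68 to 1.31, with ILL8 at the upper end.

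**Figure D4:**
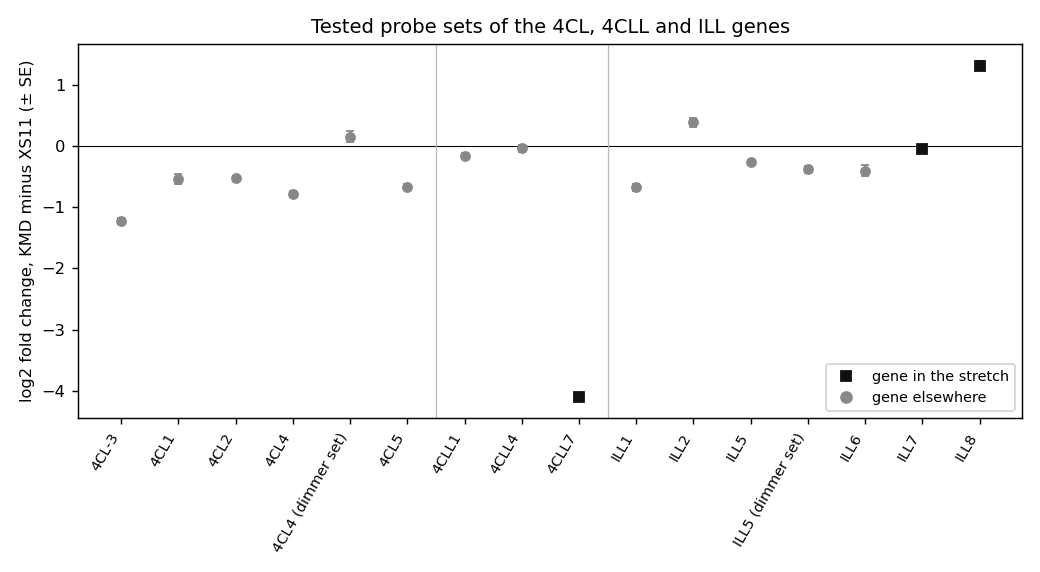
Log2 fold change (KMD minus XS11, bars are SE) of every tested probe set of the 4CL, 4CLL and ILL genes, with genes of the stretch as squares and genes elsewhere as circles. 4CLL7 lies far below the others at -4.11, and ILL8 lies above them at 1.31.

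These values depend on how the arrays are scaled to each other. Centred on the poly-A spike-ins, an alternative chosen after seeing the data, the median log2 fold change of all tested probe sets was -0.62. The 6 genes at least 2-fold higher then stood at 0.40 to 2.68, still above 0, with 2 of them past 2-fold. The 12 lower genes stood at -5.02 to -1.67. OsC3H49 turned to -0.32 on that scale.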

How the data were processed

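RNA from leaves (Trizol, then biotin-labelled cRNA by the Affymetrix procedure, per the labels' protocols) was hybridized to 6 arrays, 3 per line, assigned by sample title. The table deposited by the authors holds linear intensity per probe set, made with MAS5 per the submitters' processing notes. The MAS5 version and scaling target are not given in the sources at hand. Median intensities ran from 35.5 to 38.6. The number of arrays limits the precision.

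Genes were named by the platform annotation and the RefSeq table. All 17905 genes were sought there by id, and 34850 probe sets without a gene and 95 with several were not named, 2 of the latter touching the range. The signal was used as log2(signal + 11.17), the 10th percentile of all values. Of 57381 probe sets, those in the upper 60% of mean log2 signal and the 64 reporters were tested, without the 123 controls, in limma 3.58.1 (lmFit, eBayes with trend, two-sided, R 4.3.3) with Benjamini-Hochberg adjustment at 0.05. The fit was also run on simulated data, with independent noise drawn from its own means and spreads. That check covers the code only, and not dim signals or scaling in the real arrays. Tables and figures used Python 3.11.15, pandas 2.3.3 and matplotlib 3.10.9.

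Genes were named if in the range and past 2-fold, if they have a symbol, if they lie at an end of the range, if their probe sets disagree, or if they belong to the 4CL and ILL families. Genes just under 2-fold, 2 genes of high signal, the flanking genes past 2-fold and the examples with several probe sets were added after their values were seen. The members and lists were chosen with earlier results of these data known. Alternatives were other pseudocounts (1, 18.5), filters (none, upper 40%), normalizations, variance models, a replicate block, leaving out each array and the mean over a gene's probe sets. Batches are not given in the labels, so batch and line cannot be told apart.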

Additional observations from a re-analysis of the deposited data

How the results depend on the processing

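For the 18 genes past 2-fold, 285 values under the alternatives kept direction and call, and 3 of the 18 were too dim for the upper 40% of signal. Which genes are past 2-fold depends on the pseudocount. With a pseudocount of 1, 8 genes of the stretch were at least 2-fold higher and 15 lower. With the larger alternative pseudocount 5 were higher and 11 lower, as LOC4343011 (0.97) and LOC4342825 (-0.9) fell short. The blocks, runs and turns along the chromosome were counted with the main pseudocount only. For 9 other named genes, 134 of 142 values kept direction and call. The exceptions were the losses of OsC3H49 given above and 5 values under centring on the poly-A spike-ins, where NRAMP5 (-0.57), OsC3H49 (-0.32) and PARP1 (-0.50) turned and ILL7 (-0.67) and ETR4 (-0.77) passed as lower. That centring gave 11 higher and 103 lower probe sets of the stretch, 2 genes at least 2-fold higher and 30 lower, 324 higher and 32600 lower over all probe sets, 1 family gene higher, and 1 flanking gene higher and 38 lower. It moves every gene by the same amount, which is its construction. Leaving out 1 array gave 31 to 35 probe sets of the stretch higher and 44 to 49 lower, 5 to 7 genes at least 2-fold higher and 12 lower, 5285 to 6292 probe sets higher and 6549 to 7212 lower in all, 2 family genes higher and 9 to 10 lower, and 9 to 10 flanking genes higher and 15 to 16 lower. With quantile normalization 7190 probe sets were higher and 6773 lower in all. Same-numbered arrays of the lines did not deviate together (correlations -0.243, -0.00826 and -0.255). Arrays of different numbers gave -0.0576 to 0.322. Deviations from a mean of 3 arrays are tied to each other, so these values cannot settle whether the numbers pair the arrays. A replicate block gave 36 probe sets of the stretch higher and 48 lower. Without detection calls, signals near the dim end have no known lower limit.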
